A study of Neurospora crassa OR74A with 12 samples.

Results

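The response to H2O2 of *Neurospora crassa* mycelia lacking UPF-1 was compared with that of the WT strain, gene by gene, by taking the log2 effect of H2O2 in *upf-1KO* minus the log2 effect of H2O2 in WT (called the strain difference below). All 12 RNA-seq libraries of the series entered this comparison, 12 of 12 in all, as 3 independent pools in each of 4 groups: *upf-1KO* with 20 mM H2O2, untreated *upf-1KO*, WT with 20 mM H2O2 and untreated WT. The sample labels name OR74A mycelium of hyphal cells for every library. The study's methods name 2 WT strains, 87-3, which carries the *bd* mutation of *ras-1*, and ORS-SL6a, without saying which was sequenced. They also state a shared *bd* background for all strains used. ORS-SL6a served the study as a control without *bd* for CAT-3 activity and protein. By the methods WT and *upf-1KO* thus shared *bd*, though the WT strain sequenced is not named. By the same methods, *upf-1* was replaced with a hygromycin resistance gene in a *bd* host whose *ku70* gene had been mutated by repeat-induced point mutation, so that *upf-1KO* differed from WT at *ku70* as well. How long the mycelia were exposed to H2O2 was not given in the sources used here. A positive strain difference means that H2O2 raised the gene more, or lowered it less, in *upf-1KO* than in WT, and it can come from the levels with H2O2, from the levels without it, or from both.

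UPF-1 is the RNA helicase at the core of nonsense-mediated mRNA decay (NMD), the pathway that removes mRNAs whose translation stops early. Together with UPF-2 and UPF-3 it also keeps down many normal mRNAs, among them mRNAs with upstream open reading frames or long 3′ untranslated regions. H2O2 damages proteins, lipids and DNA, and fungi meet it with catalases, peroxidases, thioredoxin, glutathione transferases and chaperones, and with a remodelling of mitochondria and protein synthesis. The comparison asks which of these responses differ when UPF-1 is missing.

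Each library held 5891672 to 7703271 reads assigned to genes. Counts were scaled with TMM factors, which correct for a few genes taking a large share of the reads. The factors were 0.802 to 1.12 in *upf-1KO* with H2O2, 1.49 to 1.53 in untreated *upf-1KO*, 0.481 to 0.602 in WT with H2O2 and 1.30 to 1.34 in untreated WT. The 10 most abundant genes took 12.5 to 18.5%, 11.8 to 12.2%, 18.8 to 29.8% and 10.1 to 11.2% of the counts of these groups in the same order. The *upf-1* gene (NCU04242, chromosome V, 5327537 to 5332820) was lower in *upf-1KO* with H2O2 (log2 -1.51, adjusted p = 0.00105 from edgeR) and without it (log2 -1.75, adjusted p = 0.000357 from edgeR), but 232 to 375 reads were still counted on the locus in each *upf-1KO* library, against 501 to 748 in each WT library. *mus-51* (NCU08290, chromosome IV, 2520412 to 2522837), which the RefSeq table also names KU70 and which encodes a subunit of the Ku complex for joining broken DNA ends, had 4, 0 and 3 reads in *upf-1KO* with H2O2 and 0 in each untreated *upf-1KO* library. The WT libraries had 67, 72 and 107 reads on *mus-51* with H2O2 and 188, 220 and 205 without it, and 1 tested gene, *mus-51*, had under 10 normalized counts in all *upf-1KO* libraries and over 40 in all WT libraries. Effects of the *ku70* mutation and of the loss of *upf-1* cannot be told apart in this design.

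Among the H2O2 libraries, replicate 2 of *upf-1KO* stood apart. Its Spearman correlation over genes was 0.873 and 0.879 with the other H2O2 libraries of *upf-1KO*, whereas those correlated at 0.990, and 453 of 7878 genes (5.75%) were more than 4-fold above both of them, with 2 genes as far below (normalized counts plus 5). Replicate 1 of WT with H2O2 was the next to stand apart, with a correlation of 0.952 and 0.953 with its replicates, which correlated at 0.986, and with 74 genes more than 4-fold above both. Where leaving out one of them changes a call or moves a strain difference given here by more than 1.5 times, the value without it is given.

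Of 10685 genes, 7878 passed the filter on low counts, and the strain difference had a Benjamini-Hochberg adjusted p under 0.05 (edgeR quasi-likelihood test) for 529 of them (6.71%). It was positive for 304 genes (3.86%) and negative for 225 (2.86%). In comparison, H2O2 raised 26.0% and lowered 22.8% of the genes in *upf-1KO*, and raised 26.5% and lowered 30.2% in WT. With H2O2, 15.5% of the genes were higher and 12% lower in *upf-1KO* than in WT, and without H2O2 10.4% were higher and 4.71% lower. The balance between positive and negative differences depended on the scaling. With TMM factors 57.5% of the called genes were positive. This share was 40.4% under DESeq2's median-of-ratios scaling, 34.1% under upper quartile scaling and 91% under library totals alone. The median over all genes was 0.15 under TMM and 0.02 under the scaling of DESeq2, so single values below are read against a median of 0.15, and lists of genes are given with this median taken off. Of the 529 genes, 426, 398 and 410 were also called under these other scalings in turn, and all of these had the same sign in each.

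The number of calls moved with single libraries. Leaving out 1 library gave 92 to 749 positive and 76 to 591 negative calls, and each of the 12 libraries moved at least 1 of these counts by more than 1.5 times. Without *upf-1KO* H2O2 replicate 2 there were 749 positive and 579 negative calls, and 527 of the 529 genes were among them, all with the same sign. Without WT H2O2 replicate 1 there were 437 and 591, with 444 of the 529 among them. Positive and negative calls were 204 and 364 without *upf-1KO* H2O2 replicate 1, 230 and 399 without its replicate 3, 111 and 240 without WT H2O2 replicate 2 and 110 and 257 without its replicate 3. Without 1 of the 6 untreated libraries they were 92 to 113 and 76 to 93. Called in each of the 12 fits were 76 positive and 72 negative genes, and of these 56 and 45 averaged 100 normalized counts or more and overlapped no other gene; the single genes described first come from this group.

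**Figure D1:**
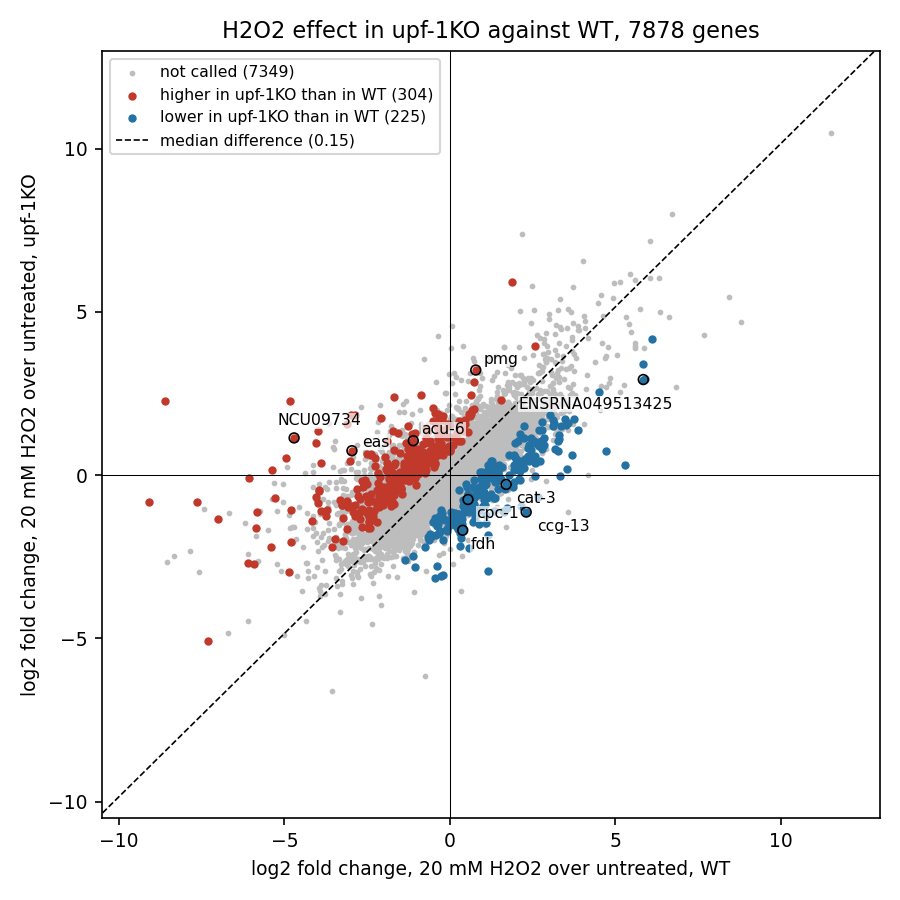
Log2 effect of 20 mM H2O2 in upf-1KO (vertical axis) and in WT (horizontal axis) for the 7878 genes tested; each point is a gene, red for the 304 and blue for the 225 genes whose strain difference was called, and the dashed line marks equal effects shifted by the median difference of 0.15. Genes in red lie above the line, many of them at negative values in WT and higher values in upf-1KO (eas, NCU09734), and genes in blue lie below it, with cat-3 and ccg-13 at positive values in WT and negative values in upf-1KO.

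The largest class of positive differences were genes that H2O2 lowered in WT with no call in *upf-1KO*. Of the 304 genes, 126 fell in WT with no call in *upf-1KO*, 71 fell in both strains, 59 rose in *upf-1KO* with no call in WT, 36 rose in *upf-1KO* and fell in WT, and 12 rose in both. Of the 225 negative genes, 80 rose in WT with no call in *upf-1KO*, 56 fell in *upf-1KO* with no call in WT, 43 rose in both, 35 fell in *upf-1KO* and rose in WT, and 11 fell in both. Read by treatment, 163 of the 304 positive genes were called higher in *upf-1KO* than in WT with H2O2 and not called without it, whereas 63 were called lower in untreated *upf-1KO* and not called with H2O2, and 38 were higher with and lower without H2O2. Of the 225 negative genes, 103 were called lower in *upf-1KO* with H2O2 alone, 80 were called higher in untreated *upf-1KO* alone, and 16 were both. These classes come from the same fit as the strain difference and describe its make-up. The median effect of H2O2 was 0.24 in *upf-1KO* and -1.47 in WT over the 304 positive genes, and -0.42 in *upf-1KO* and 1.11 in WT over the 225 negative genes, against 0.08 and -0.13 over all genes tested.

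The largest positive differences among abundant genes were genes already low in untreated *upf-1KO*. NCU09734 (chromosome IV, 1983143 to 1985300), to which the sources used here give no product name, had 266, 439 and 196 normalized counts in *upf-1KO* with H2O2 and 138, 149 and 124 in untreated *upf-1KO*. WT had 80, 156 and 83.1 with H2O2 and 2466, 2924 and 2796 without. Untreated WT was the highest group, and in both strains the H2O2 libraries did not overlap the untreated ones. H2O2 raised NCU09734 in *upf-1KO* (log2 1.14) and lowered it in WT (log2 -4.71), a strain difference of 5.84 (edgeR, standard error 0.44, adjusted p = 3.78e-05). NCU09272, NCU09273 and NCU09274 lie close together on chromosome VII, between 114609 and 125416, and were likewise highest in untreated WT. NCU09272 had 65.6, 53.6 and 61.1 normalized counts in *upf-1KO* with H2O2 and 37.5, 41.9 and 46.2 without. In WT there were 21.3, 30 and 35.1 with H2O2 and 849.7, 1049.5 and 797 without. Its strain difference was 5.48 (edgeR, standard error 0.31, adjusted p = 3e-06). The differences of NCU09273 and NCU09274 were 4.65 and 4.71 (edgeR, standard errors 0.28 and 0.41, adjusted p = 3e-06 and 9e-05). NCU00859 (chromosome I, 6934489 to 6936565) differed by 5.02 (edgeR, standard error 0.26, adjusted p = 1.58e-06) and NCU05858 (chromosome VII, 4076847 to 4080943) by 4.85 (edgeR, standard error 0.42, adjusted p = 9e-05). In all 6 genes the untreated WT libraries were the highest and H2O2 lowered the WT level by at least 2.87 on the log2 scale.

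Several well-known genes fell in WT with H2O2 and fell less, did not pass the test or rose in *upf-1KO*. *eas* (NCU08457, chromosome II, 3570905 to 3572798), the hydrophobin that coats conidia and aerial hyphae, was the most abundant of them. It had 106233, 75653 and 115331 normalized counts in *upf-1KO* with H2O2 and 60789, 60303 and 55996 in untreated *upf-1KO*. The WT libraries had 9628, 9779 and 9818 with H2O2 and 79509, 66286 and 81128 without. The WT libraries with H2O2 were thus far below all the others, and *upf-1KO* with H2O2 did not overlap untreated *upf-1KO*. *eas* rose in *upf-1KO* (log2 0.75) and fell in WT (log2 -2.96), a difference of 3.70 (edgeR, standard error 0.32, adjusted p = 9e-05) that was 3.36 to 3.87 with 1 library left out. *acu-6* (NCU09873, chromosome VI, 1824832 to 1828327), phosphoenolpyruvate carboxykinase of gluconeogenesis, had 1318, 690.4 and 1171 normalized counts in *upf-1KO* with H2O2 and 562, 454 and 515 without. WT had 99.5, 84.6 and 77.6 with H2O2 and 189, 161 and 213 without. It rose in *upf-1KO* (log2 1.05) and fell in WT (log2 -1.10), and the 2 strains did not overlap in either condition (difference 2.16 (edgeR, standard error 0.34, adjusted p = 0.00526)). *ada-6* (NCU04866, chromosome IV, 536988 to 539552), a zinc cluster transcription factor, fell in both strains but far more in WT. It had 91.8, 135 and 109 normalized counts in *upf-1KO* with H2O2 and 191, 165 and 181 without. WT had 40.9, 51.9 and 25.9 with H2O2 and 630.5, 683 and 622 without. The difference was 3.37 (edgeR, standard error 0.33, adjusted p = 0.00025). *gla-1* (NCU01517, chromosome II, 3214128 to 3217500), a secreted glucoamylase, fell in WT (log2 -2.10) with no call in *upf-1KO* (log2 -0.07), a difference of 2.03 (edgeR, standard error 0.27, adjusted p = 0.00184). *cut-1* (NCU04924, chromosome IV, 749584 to 752599) likewise fell in WT (log2 -1.81) with no call in *upf-1KO* (log2 -0.20), a difference of 1.61 (edgeR, standard error 0.27, adjusted p = 0.00688).

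Other genes with a positive difference rose with H2O2 in *upf-1KO*. *pmg* (NCU03509, chromosome II, 432025 to 434576) rose in both strains and had 943, 1125 and 919 normalized counts in *upf-1KO* with H2O2 and 95.3, 119 and 107 without. WT had 1852, 3234 and 3061 with H2O2 and 1286, 2084 and 1349 without. Its level in *upf-1KO* was below that of WT in both conditions, by -1.45 with H2O2 and -3.88 without on the log2 scale, and the difference was 2.43 (edgeR, standard error 0.34, adjusted p = 0.00285). *Prm1* (NCU09337, chromosome II, 4147012 to 4150433), a membrane protein needed for cell fusion, rose in *upf-1KO* (log2 1.67) and had log2 -0.50 in WT (adjusted p = 0.0895 from edgeR), a difference of 2.17 (edgeR, standard error 0.34, adjusted p = 0.00523). *ena-1* (NCU05046, chromosome VI, 3938154 to 3943089), a sodium-exporting ATPase, had 1755, 1327 and 1623 normalized counts in *upf-1KO* with H2O2 and 482, 509 and 487 without. WT had 4879, 5093 and 5097 with H2O2 and 4015, 4257 and 4013 without. The *upf-1KO* level was thus nearer to the WT level with H2O2 than without (difference 1.38 (edgeR, standard error 0.19, adjusted p = 0.00252)). *acw-10* (NCU03013, chromosome I, 8440393 to 8442693), an anchored cell wall protein, rose in *upf-1KO* (log2 1.53) and not in WT (log2 0.02, adjusted p = 0.939 from edgeR), and differed by 1.51 (edgeR, standard error 0.23, adjusted p = 0.00448).

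Among negative differences, *cat-3* (NCU00355, chromosome III, 3561379 to 3564584), the catalase of growing hyphae, rose in WT and not in *upf-1KO*. It had 2339, 3033 and 1922 normalized counts in *upf-1KO* with H2O2 and 3026, 2939 and 2931 in untreated *upf-1KO*. In WT there were 2339, 2478 and 2328 with H2O2 and 688, 823 and 679 without. Untreated WT was the only low group, and the strains overlapped with H2O2. H2O2 raised *cat-3* in WT by 1.71 on the log2 scale, with -0.29 in *upf-1KO* (adjusted p = 0.172 from edgeR), and the strain difference was -1.99 (edgeR, standard error 0.24, adjusted p = 0.00103), -2.23 to -1.94 with 1 library left out. *cpc-1* (NCU04050, chromosome VI, 2565204 to 2567073), the bZIP activator of amino acid synthesis genes, was 1 of the 3 most abundant negative genes and was highest in untreated *upf-1KO*. It had 14695, 10519.9 and 14044 normalized counts in *upf-1KO* with H2O2 and 22859, 21796 and 21265 without. The WT libraries had 12171, 14858 and 14630.5 with H2O2 and 9405, 9357 and 9645 without. *cpc-1* fell in *upf-1KO* (log2 -0.75) and rose in WT (log2 0.55), the strains overlapped with H2O2, and the difference was -1.30 (edgeR, standard error 0.25, adjusted p = 0.0117). *ccg-13* (NCU08907, chromosome V, 678921 to 680033), a clock-controlled gene, had 673, 1016 and 834 normalized counts in *upf-1KO* with H2O2 and 1642, 1955 and 1938 without. WT had 391, 442 and 464 with H2O2 and 113, 66.1 and 81.2 without. The strain difference was -3.44 (edgeR, standard error 0.30, adjusted p = 0.000103). The strains overlapped in neither condition, H2O2 and untreated libraries overlapped in neither strain, and the gap between the strains was smaller with H2O2 (log2 0.96) than without (log2 4.41).

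Enzymes of one-carbon and formaldehyde metabolism stood among the negative differences. *fdh* (NCU03813, chromosome V, 2492005 to 2494322), formate dehydrogenase, had 862, 908 and 672 normalized counts in *upf-1KO* with H2O2 and 2825, 2557 and 2505 without. WT had 267, 180.1 and 168 with H2O2 and 144, 158 and 167 without. It was above WT in both conditions and fell in *upf-1KO* (log2 -1.69) with no call in WT (log2 0.39), a difference of -2.08 (edgeR, standard error 0.27, adjusted p = 0.00171). NCU11395 (chromosome VII, 463472 to 465368), named an S-glutathione dehydrogenase in the study's tables, rose in both strains and had 1307, 865 and 1368 normalized counts in *upf-1KO* with H2O2 and 439, 438 and 474 without. WT had 1644, 778 and 737 with H2O2 and 69.5, 71.5 and 75.2 without. The strains overlapped with H2O2, and the difference was -2.48 (edgeR, standard error 0.41, adjusted p = 0.00662). *for* (NCU02274, chromosome VII, 3099945 to 3102584), the cytosolic serine hydroxymethyltransferase that feeds one-carbon units, differed mainly in the level reached with H2O2. It had 11255, 7095 and 10804 normalized counts in *upf-1KO* with H2O2 and 8703, 8057 and 7842 without. WT had 23044, 30295 and 30295 with H2O2 and 8978, 11277 and 10066 without. *for* rose in WT alone (log2 1.46), its difference was -1.22 (edgeR, standard error 0.29, adjusted p = 0.0322), and the call was lost with any of the 6 untreated libraries left out (adjusted p up to 0.0959, log2 difference -1.55 to -1.03). These 3 genes were brought together after their values were seen, and no list of this pathway was tested.

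Most of the remaining leading negative genes are known only by an identifier. NCU08230 (chromosome III, 4711338 to 4716085) fell in *upf-1KO* (log2 -3.09), where it overlapped WT with H2O2, with 48.5, 36.7 and 62.4 normalized counts in *upf-1KO* with H2O2 and 407, 400.4 and 445 without. In WT there were 40.9, 54.6 and 46.2 with H2O2 and 60.2, 64.6 and 44.4 without. The difference was -2.82 (edgeR, standard error 0.34, adjusted p = 0.00121). ENSRNA049513425 (chromosome II, 2454411 to 2454693), a locus with a non-coding RNA identifier, rose in both strains but less in *upf-1KO*, with 99.7, 72.4 and 46.8 normalized counts in *upf-1KO* with H2O2 and 9.73, 9.91 and 8.82 without. The WT libraries had 609.6, 1264 and 600.4 with H2O2 and 10, 15.4 and 17.1 without. The WT libraries with H2O2 were far above all others, and the difference was -2.92 (edgeR, standard error 0.54, adjusted p = 0.011). NCU02138, NCU07222 and *ccg-14* rose in WT by 1.65, 2.58 and 3.17 on the log2 scale, and their strain differences were -2.76, -2.62 and -2.36 (edgeR, adjusted p = 0.00523, 0.0037 and 0.0119), or -2.39, -2.50 and -2.41 without WT H2O2 replicate 1. *ro-7* (NCU03563, chromosome II, 215249 to 218230), the Arp11 subunit of dynactin, fell in both strains and more in *upf-1KO*, with 78.7, 70.4 and 98.8 normalized counts in *upf-1KO* with H2O2 and 296, 309.6 and 314 without. WT had 238, 257 and 255 with H2O2 and 364, 379 and 371 without. The difference was -1.32 (edgeR, standard error 0.23, adjusted p = 0.00868).

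**Figure D2:**
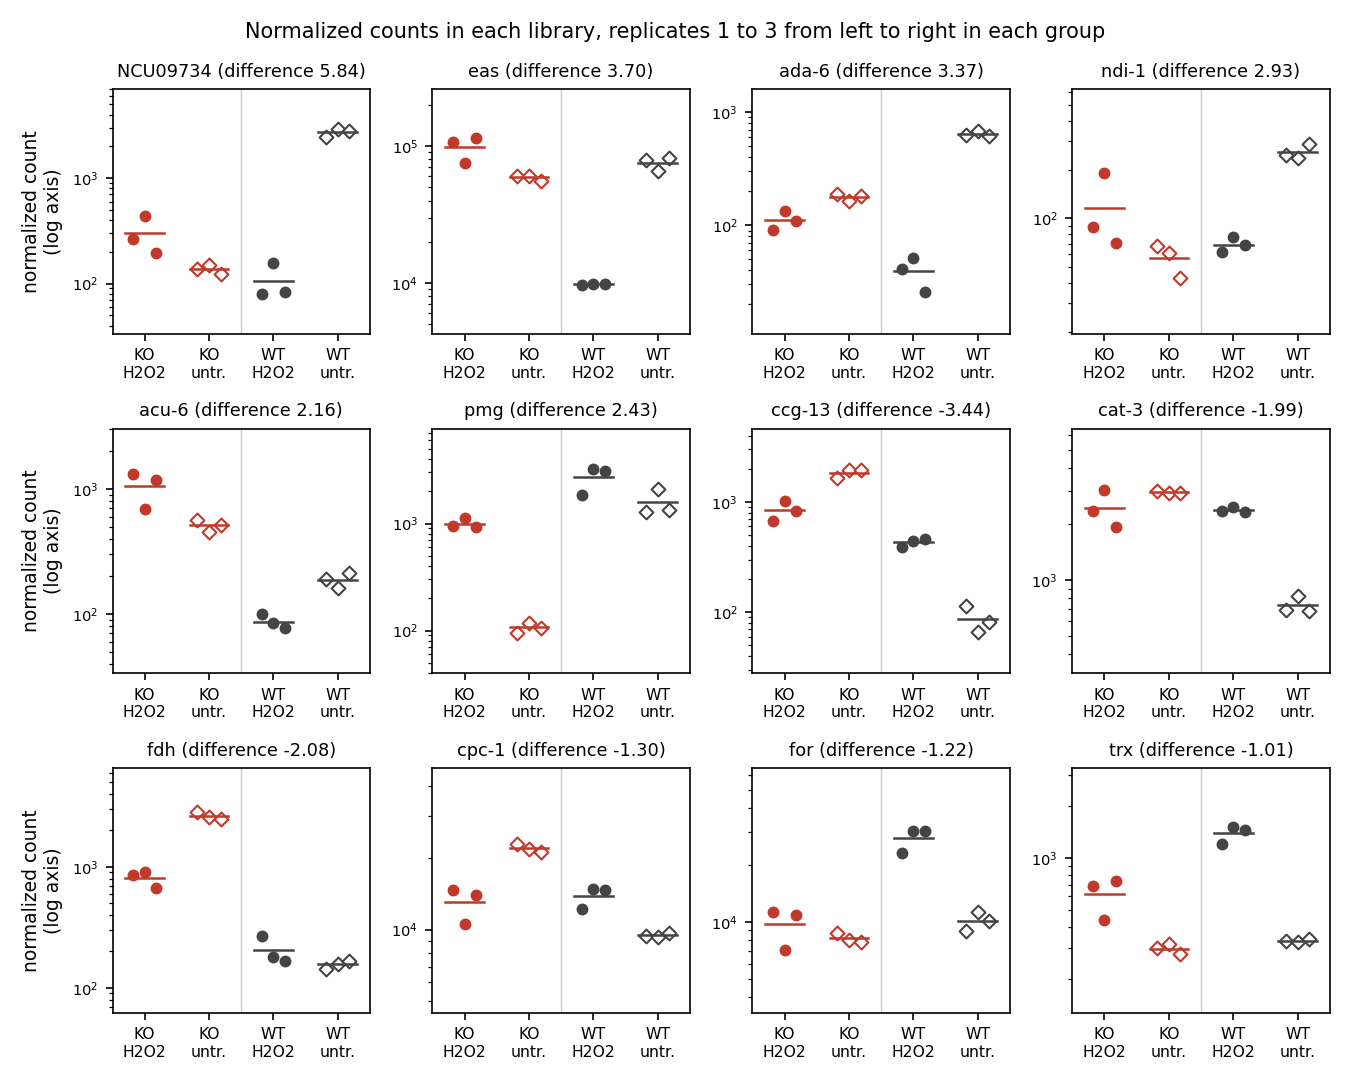
Normalized counts (log axis) of 12 genes in each of the 12 libraries, with upf-1KO in red and WT in grey, H2O2 as filled circles and untreated as open diamonds; lines mark group means and each title gives the strain difference on the log2 scale. In the first 6 panels H2O2 raised the gene more or lowered it less in upf-1KO than in WT; in the last 6 panels it did the opposite, as for cat-3, where untreated WT is the only low group.

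Of 11 tested genes for defence against peroxide and superoxide, 9 rose with H2O2 in *upf-1KO* and 10 in WT, none fell in either strain, and 2 had a called strain difference, both negative (*cat-3* and *trx*). The list's median difference was -0.11 after taking off the median of all genes. Counts of this list and those below stand beside these shares of all genes tested. H2O2 raised 26.0% in *upf-1KO* and 26.5% in WT, and lowered 22.8% and 30.2%. The strain difference was called for 6.71%, positive for 3.86% and negative for 2.86%. *trx* (NCU05731, chromosome III, 673232 to 674187), thioredoxin, had 690.1, 435 and 736 normalized counts in *upf-1KO* with H2O2 and 300.4, 319 and 278 without. WT had 1203, 1512 and 1439 with H2O2 and 329, 326 and 337 without. It rose in both strains, less in *upf-1KO* (difference -1.01 (edgeR, standard error 0.27, adjusted p = 0.0459)), and the call was lost with any of the 6 untreated libraries or WT H2O2 replicates 2 or 3 left out (adjusted p up to 0.125, log2 difference -1.37 to -0.81). *cat-1*, the catalase that is abundant in conidia, rose in both strains by 1.46 in *upf-1KO* and 2.58 in WT on the log2 scale, a difference of -1.12 that did not pass (edgeR, standard error 0.47, adjusted p = 0.172). Its WT libraries had 4938, 1793 and 1709 normalized counts with H2O2, the first far above the others, and the difference was -0.64 without that library (WT H2O2 replicate 1) and -1.59 to -1.02 with any other library left out. *cat-2*, a catalase-peroxidase, could not be resolved: it had 579.9, 3326 and 561 normalized counts in *upf-1KO* with H2O2 and 350.4, 304 and 291 without. WT had 643, 169 and 168 with H2O2 and 86.4, 65.4 and 62.4 without. Its difference of 0.04 (edgeR, standard error 0.98, adjusted p = 0.984) was -1.35 without *upf-1KO* H2O2 replicate 2 and 0.76 without WT H2O2 replicate 1. The 4 glutathione transferases *gst-1* to *gst-4* rose by 4.45 to 5.26 in *upf-1KO* and 3.22 to 4.48 in WT on the log2 scale, with differences of 0.58 to 1.39 that did not pass. For *gst-1*, *gst-2* and *gst-3* this rested on WT H2O2 replicate 1, which was about 3-fold above both its replicates. Without it their differences were 1.36, 1.39 and 2.04 and passed (edgeR, adjusted p = 0.00494, 0.00687 and 0.00131), whereas that of *gst-4* was 0.62 (adjusted p = 0.149 from edgeR). With another library left out the lowest values of *gst-1* to *gst-4* were 0.28, 0.33, 0.87 and 0.22, without WT H2O2 replicate 2 for the first 3 and replicate 3 for *gst-4*. *ngf-1*, a histone acetyltransferase gene that the study also followed, fell in both strains, with a difference of 0.64 that did not pass (edgeR, standard error 0.61, adjusted p = 0.527) and that was -0.15 without *upf-1KO* H2O2 replicate 2, 0.37 without WT H2O2 replicate 1 and 0.28 without WT H2O2 replicate 3. *ngf-1* overlaps other genes, so its counts are uncertain, and each WT library with H2O2 held at most 13 reads on it. By RT-qPCR the study found *ngf-1* mRNA raised by H2O2 in WT.

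The alternative NADH dehydrogenases of mitochondria, which pass electrons to ubiquinone without pumping protons, held both positive calls among 11 genes for alternative oxidases, alternative NADH dehydrogenases and NADPH oxidases (list median 0.36 above that of all genes, 8 of 11 above it). *ndi-1* (NCU00153, chromosome III, 2804504 to 2807804), the enzyme on the matrix side, had 89.2, 190.5 and 70.2 normalized counts in *upf-1KO* with H2O2 and 67.4, 61 and 42.8 without. WT had 62.2, 76.4 and 68.3 with H2O2 and 245, 236 and 286 without. It was higher in untreated WT than in untreated *upf-1KO* (log2 -2.16 for *upf-1KO* over WT). It rose in *upf-1KO* (log2 1.04) and fell in WT (log2 -1.89), and the strains overlapped with H2O2 (difference 2.93 (edgeR, standard error 0.48, adjusted p = 0.00662)). *nde-3* fell in both strains, less in *upf-1KO* (difference 0.98 (edgeR, standard error 0.26, adjusted p = 0.0437)), a call lost with any of the 6 untreated libraries, WT H2O2 replicates 1, 2 or 3 or *upf-1KO* H2O2 replicates 1 or 3 left out (adjusted p up to 0.131, log2 difference 0.70 to 1.02).

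Reads on genes of the mitochondrial genome, few in every library, rose in both strains and were lower in *upf-1KO* than in WT with H2O2. All 15 tested of the 56 mitochondrial genes in the table rose with H2O2, with a median of 3.60 in *upf-1KO* and 5.61 in WT on the log2 scale, and all 15 strain differences were negative (-3.39 to -0.56), below the median of all genes. With H2O2 all 15 were lower in *upf-1KO* than in WT, and without H2O2 none was called in either direction. The list's median was -2.09 after taking off the median of all genes, and it lay between -2.26 and -1.58 over the 25 alternatives. Mitochondrial genes took 0.0221, 0.0160 and 0.0178% of the counts in *upf-1KO* with H2O2 and 0.00262, 0.00278 and 0.00321% in untreated *upf-1KO*, against 0.0448, 0.0509 and 0.0355% in WT with H2O2 and 0.00301, 0.00241 and 0.00269% in untreated WT. These shares are small in every library, and with H2O2 those of *upf-1KO* did not overlap those of WT. How far so few reads follow the amount of mitochondrial RNA was not tested. Of the 15 genes, 4 had a called difference. NCU16028 (chromosome Mt, 59529 to 60281) had 681, 347 and 590.0 normalized counts in *upf-1KO* with H2O2 and 22.2, 35.1 and 31.9 without. In WT there were 1461, 2336 and 1718 with H2O2 and 27, 27.7 and 23.9 without. The strain difference was -1.95 (edgeR, standard error 0.40, adjusted p = 0.0165), and its call was lost with untreated WT replicate 3 or untreated *upf-1KO* replicates 2 or 3 left out (adjusted p up to 0.0584, log2 difference -2.37 to -1.70). NCU16012, NCU16020 and NCU16002 differed by -1.98, -2.96 and -2.44 (edgeR, adjusted p = 0.0119, 0.027 and 0.0459), and the call of NCU16020 was lost with untreated WT replicate 2 or untreated *upf-1KO* replicates 1, 2 or 3 left out (adjusted p up to 0.0993, log2 difference -3.43 to -2.51) and that of NCU16002 with untreated WT replicates 1 or 2, untreated *upf-1KO* replicates 1, 2 or 3, WT H2O2 replicate 2 or *upf-1KO* H2O2 replicate 1 left out (adjusted p up to 0.148, log2 difference -3.14 to -2.17). All 3 overlap other genes, so their counts are uncertain, and 3 of the 15 genes had 3 counts or fewer in every library of a group; with such groups set to 3 counts the list's median, before taking off that of all genes, was -1.78 in place of -1.95. In bulk RNA, fewer cells of a kind and less RNA per cell cannot be told apart. Of 41 genes of the respiratory chain and ATP synthase encoded in the nucleus, 20 rose in *upf-1KO* and 25 in WT, and none had a called strain difference with edgeR (3 at an unadjusted p under 0.05, 1 called with DESeq2 and 15 with limma voom).

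**Figure D3:**
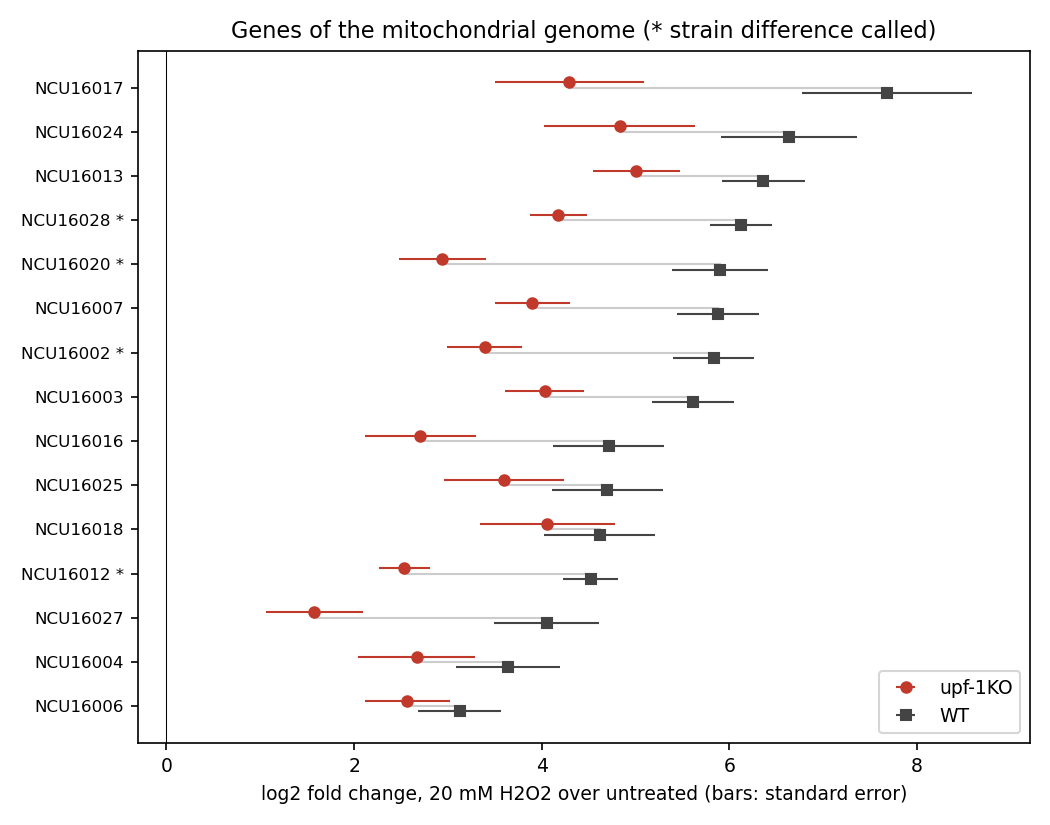
Log2 effect of 20 mM H2O2 on the 15 tested genes of the mitochondrial genome in upf-1KO (red circles) and WT (grey squares), with bars of 1 standard error and an asterisk for the 4 genes whose strain difference was called. All 30 effects are above 0, and for each gene the upf-1KO value lies to the left of the WT value.

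The lists of proteasome genes and of heat shock genes lay above the median of all genes. Of 30 proteasome genes, 25 rose in *upf-1KO* and 17 in WT, 23 of 30 strain differences were above the median of all genes (list median 0.20 above it), and 2 were called, both positive. Over all genes tested, 26.0% rose in *upf-1KO* and 26.5% in WT, and 6.71% were called, so the share of calls was near that of all genes. *pca-4*, a subunit of the proteasome core, had 2364, 2583 and 2639 normalized counts in *upf-1KO* with H2O2 and 1211, 1281 and 1203 without. The WT libraries had 1489, 1517 and 1456 with H2O2 and 1246, 1172 and 1129 without. It rose in both strains and more in *upf-1KO* (difference 0.71 (edgeR, standard error 0.17, adjusted p = 0.0294)). *pcb-3*, also of the core, rose in *upf-1KO* (log2 0.76) with no call in WT (log2 -0.36), a difference of 1.12 (edgeR, standard error 0.28, adjusted p = 0.0375). The call of *pca-4* was lost with any of the 6 untreated libraries, WT H2O2 replicates 1, 2 or 3 or *upf-1KO* H2O2 replicates 1 or 3 left out (adjusted p up to 0.181, log2 difference 0.45 to 0.74), that of *pcb-3* with any of the 6 untreated libraries, WT H2O2 replicates 2 or 3 or *upf-1KO* H2O2 replicate 3 left out (adjusted p up to 0.135, log2 difference 0.77 to 1.17), and both genes overlap another gene. Of 13 heat shock proteins, chaperones and their regulators, 10 rose in *upf-1KO* and 7 in WT, and 11 of 13 differences were above the median of all genes (list median 0.53 above it). *hsp80* (NCU04142, chromosome V, 4974497 to 4977515), a chaperone, had 9485, 14580.1 and 8183 normalized counts in *upf-1KO* with H2O2 and 4960.1, 4854 and 4486 without. WT had 7287, 5862 and 5243 with H2O2 and 5909.8, 6136 and 6148 without. The difference was 1.16 (edgeR, standard error 0.30, adjusted p = 0.041), a call lost with any of the 6 untreated libraries, WT H2O2 replicates 2 or 3 or *upf-1KO* H2O2 replicate 1 left out (adjusted p up to 0.158, log2 difference 0.83 to 1.19). *hsf-2*, a heat shock factor, fell in both strains, less in *upf-1KO* (difference 1.18 (edgeR, standard error 0.23, adjusted p = 0.0129), lost with untreated *upf-1KO* replicates 2 or 3 or WT H2O2 replicates 2 or 3 left out (adjusted p up to 0.0614, log2 difference 0.83 to 1.23)). *hsp30*, *hsp98* and *hsp90a* rose by 4.86, 2.50 and 2.06 in *upf-1KO* and by 4.65, 2.50 and 1.98 in WT on the log2 scale. Their differences of 0.22, 0.00 and 0.08 did not pass (edgeR, standard errors 0.57, 0.41 and 0.19, adjusted p = 0.839, 0.999 and 0.825). Without WT H2O2 replicate 1 they were 0.87, 0.38 and -0.096, and that of *hsp30* then passed (edgeR, adjusted p = 0.0204). With each library left out they ranged from -0.34 to 0.87, -0.45 to 0.38 and -0.24 to 0.18.

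The lists of amino acid synthesis and ribosomal protein genes lay below the median of all genes. Of 68 amino acid biosynthesis genes, 18 rose in *upf-1KO* and 36 in WT, 12 of 68 strain differences were above the median of all genes (list median -0.49 from it), and 4 were called, all negative: *cpc-1*, given above, *cys-2*, *trp-2* and *ilv-5*. Over all genes tested, 26.0% rose in *upf-1KO* and 26.5% in WT, and 6.71% were called (2.86% negative). *ilv-5* (NCU02397, chromosome VII, 2647005 to 2649547), for isoleucine and valine, had 1139, 850.1 and 1222 normalized counts in *upf-1KO* with H2O2 and 940.0, 942 and 946 without. WT had 1154, 1138 and 1042 with H2O2 and 385, 509.8 and 405 without. Like *cat-3*, it was low in untreated WT alone, and it differed by -1.18 (edgeR, standard error 0.23, adjusted p = 0.0145), a call lost with untreated WT replicates 1 or 3 or untreated *upf-1KO* replicates 2 or 3 left out (adjusted p up to 0.055, log2 difference -1.50 to -1.03). *trp-2*, for tryptophan, rose in WT (log2 1.16) with no call in *upf-1KO* (log2 0.14), and *cys-2* fell in *upf-1KO* (log2 -0.46) with no call in WT (log2 0.27). Their differences were -1.02 and -0.72 (edgeR, adjusted p = 0.0347 and 0.0459), *trp-2* lost with untreated WT replicates 1 or 2 or untreated *upf-1KO* replicates 1, 2 or 3 left out (adjusted p up to 0.101, log2 difference -1.39 to -0.94) and *cys-2* lost with any of the 6 untreated libraries left out (adjusted p up to 0.133, log2 difference -1.0 to -0.68). The list of cytosolic ribosomal proteins had 7 tested genes, and only genes with a matching RefSeq symbol could enter it. RefSeq gave 1118 symbols for 10588 matched identifiers, so the list is a part of this class. Of the 7 genes, 6 rose in *upf-1KO* and 7 in WT, and all 7 were lower in *upf-1KO* than in WT with H2O2. All 7 differences were below the median of all genes (-1.33 to -0.30), though none was called with edgeR (3 at an unadjusted p under 0.05, 2 called with DESeq2 and 6 with limma voom).

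DNA repair was the list that rested most on 1 library. The median difference of its 28 tested genes was 1.12 above that of all genes, the highest of all lists, and it was -0.08 without *upf-1KO* H2O2 replicate 2. With edgeR no gene was called (5 at an unadjusted p under 0.05), with DESeq2 1 and with limma voom 6. Leaving out *mus-51*, which has a floor of counts in *upf-1KO*, 25 of 27 genes (92.6%) were higher in this library than in both other *upf-1KO* libraries with H2O2, against 45.3% of all genes tested, and 12 (44.4%) were more than 4-fold higher, against 5.75% of all genes tested. *mus-25* (NCU02348, chromosome VII, 2822821 to 2826123), the RAD54 homologue, had 74.8, 717 and 46.8 normalized counts in *upf-1KO* with H2O2 and 84.1, 87.7 and 105 without. WT had 51.5, 40.9 and 22.2 with H2O2 and 86.4, 93.8 and 79.4 without. *mus-40* (NCU07498, chromosome I, 402099 to 406298) had 6.56, 352 and 6.50 normalized counts in *upf-1KO* with H2O2 and 142, 167 and 164 without. In WT it had 16, 10.9 and 7.39 with H2O2 and 157, 175 and 148 without. Replicate 2 of *upf-1KO* with H2O2 was thus the only high library for *mus-25*, and for *mus-40* it was high where the 5 other H2O2 libraries were low. *parp* (NCU08852), poly(ADP-ribose) polymerase, which was on no list, had 22.3, 1903 and 29.9 normalized counts in *upf-1KO* with H2O2. The choice of *mus-25*, *mus-40* and *parp* was made with their values in view. The part of this library in other results was measured by leaving it out, and its cause was not tested.

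**Figure D4:**
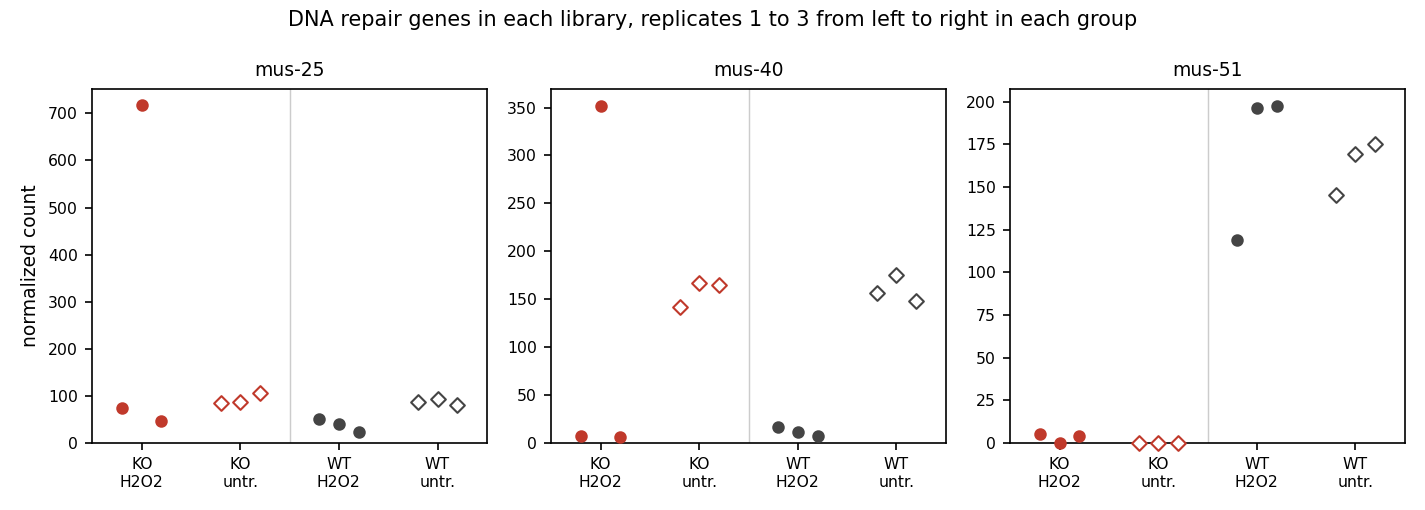
Normalized counts of 3 DNA repair genes in each library (linear axes from 0), with upf-1KO in red and WT in grey, H2O2 as filled circles and untreated as open diamonds. For mus-25 and mus-40, replicate 2 of upf-1KO with H2O2 lies far above the other H2O2 libraries, and mus-51 is at or near 0 in all 6 upf-1KO libraries.

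Genes of conidia and of the clock moved in both directions. Of 21 tested conidiation and clock-controlled genes, a list that includes markers of conidia and aerial hyphae, other cells that a mycelium may hold, 2 differed positively (*eas* and *con-6*) and 2 negatively (*ccg-13* and *ccg-14*), with a median of -0.029 from that of all genes, or -0.42 with the 2 genes at a floor of 3 counts set to that floor. *con-6*, expressed in conidia, had 129.9, 143 and 173 normalized counts in *upf-1KO* with H2O2 and 33.4, 23.6 and 27.8 without. WT had 5.33, 2.73 and 0 with H2O2 and 6.95, 10.8 and 9.40 without. The WT libraries with H2O2 held at most 3 reads each, so its level with H2O2 was at least 23.4-fold higher in *upf-1KO* than in WT (floor of 3 counts per library), and its fitted difference of 4.07 has no fixed size. *con-6* overlaps another gene. Over the 6 markers *con-6*, *con-8*, *con-10*, *con-13*, *eas* and *fl*, the summed normalized counts per library were 76103 to 116104 in *upf-1KO* with H2O2, 56735 to 61439 in untreated *upf-1KO*, 9918 to 10166 in WT with H2O2 and 66994 to 81760 in untreated WT. Without *eas* they were 449 to 773, 649 to 739, 237 to 347 and 632 to 708 in these groups, no marker was at 0 in all libraries of a group, and 2 of the 6 had a called difference. The differences of *con-8*, *con-10*, *con-13* and *fl* were -2.24, -0.89, 0.68 and 0.82 and did not pass (edgeR, adjusted p = 0.129, 0.515, 0.803 and 0.172). The markers thus did not move together. The part of conidia in these differences was not tested. Among 17 clock and light genes, *frh* (the RNA helicase partner of FRQ) and *bd* (*ras-1*) had positive differences of 1.07 and 0.76 (edgeR, adjusted p = 0.0196 and 0.0437), whereas *frq*, *wc-1* and *wc-2* were not called. By the methods both strains carried the *bd* mutation of *ras-1*, though the WT strain sequenced is not named. The call of *frh* was lost with untreated WT replicates 1 or 3, untreated *upf-1KO* replicates 1, 2 or 3, WT H2O2 replicates 2 or 3 or *upf-1KO* H2O2 replicates 1 or 3 left out (adjusted p up to 0.0689, log2 difference 0.72 to 1.12) and that of *bd* with any of the 6 untreated libraries, WT H2O2 replicates 1, 2 or 3 or *upf-1KO* H2O2 replicates 1 or 3 left out (adjusted p up to 0.245, log2 difference 0.44 to 0.79). *bd* overlaps another gene.

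Membrane transporters, cell wall genes and glycoside hydrolases held further calls, beside a share of 6.71% called over all genes tested. Of 11 transporters, 3 differed positively: *ena-1*, given above, *pma-1*, the plasma membrane proton pump, and *pho-5*, a phosphate permease. None was called negative, and 7 of 11 lay above the median of all genes. The difference of *hak-1*, picked with its value in view, was -2.18 and did not pass (edgeR, standard error 0.60, adjusted p = 0.051). It was -2.72 to -1.81 with 1 library left out. *pma-1* had 11986, 7271 and 11255 normalized counts in *upf-1KO* with H2O2 and 16534, 15208 and 15052 without. In WT there were 5220.1, 8024 and 7387 with H2O2 and 24342, 25818 and 24858 without. The strain difference was 1.25 (edgeR, standard error 0.31, adjusted p = 0.0366), a call lost with any of the 6 untreated libraries, WT H2O2 replicates 1, 2 or 3 or *upf-1KO* H2O2 replicates 1 or 3 left out (adjusted p up to 0.121, log2 difference 0.88 to 1.44). *pma-1* overlaps another gene. *pho-5* rose in *upf-1KO* (log2 2.45) with no call in WT (log2 -0.85), a difference of 3.31 (edgeR, standard error 0.68, adjusted p = 0.0171), lost with untreated WT replicate 3, untreated *upf-1KO* replicates 1 or 3 or WT H2O2 replicate 3 left out (adjusted p up to 0.0596, log2 difference 2.71 to 3.96). Reads on *pho-5* were few, at most 14 in each WT library with H2O2 and 17 in each untreated *upf-1KO* library. Of 28 cell wall genes, *chit-1* (a chitinase), *acw-10* and *gel-4* (a glucan-remodelling enzyme) differed positively and *acw-12* negatively. *chit-1* had 4149.7, 2049 and 3036 normalized counts in *upf-1KO* with H2O2 and 3254, 2656 and 2644 without. The WT libraries had 2469, 4525 and 3957 with H2O2 and 11679, 15399.9 and 13515 without. Untreated WT was high alone (difference 2.0 (edgeR, standard error 0.39, adjusted p = 0.0125)). *gel-4* rose in both strains, more in *upf-1KO* (difference 1.29 (edgeR, standard error 0.21, adjusted p = 0.00644)), and *acw-12* rose in WT alone (difference -1.77 (edgeR, standard error 0.35, adjusted p = 0.0145), lost with untreated *upf-1KO* replicate 2 left out (adjusted p up to 0.0527, log2 difference -2.14 to -1.59)). Of 69 glycoside hydrolases, 5 differed positively and 3 negatively, with a median of 0.030 above that of all genes, or -0.18 from it with 9 genes set to their floor. The negative ones were *gh28-1*, *gh16-1* and *gh76-2*, with differences of -1.88, -1.46 and -1.48 (edgeR, adjusted p = 0.00456, 0.00662 and 0.0249), of which *gh76-2* was lost with any of the 6 untreated libraries left out (adjusted p up to 0.0753, log2 difference -1.87 to -1.33). *chit-1*, *acw-12* and *gh28-1* overlap other genes.

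Calls in the remaining lists follow, beside a share of 6.71% called over all genes tested. Of 3 NMD factors, *upf-2* (NCU05267, chromosome IV, 5532449 to 5537507) fell in *upf-1KO* (log2 -1.33) with no call in WT (log2 -0.35). It had 235, 250.0 and 242 normalized counts in *upf-1KO* with H2O2 and 681, 568 and 574 without. WT had 323, 379 and 397 with H2O2 and 475, 462 and 466 without. The strain difference was -0.97 (edgeR, standard error 0.21, adjusted p = 0.0206), and the call was lost with any of the 6 untreated libraries left out (adjusted p up to 0.0787, log2 difference -1.27 to -0.88). *upf-3* (NCU03435) fell by 1.45 in *upf-1KO* and by 1.54 in WT on the log2 scale, and its difference of 0.09 did not pass (edgeR, standard error 0.59, adjusted p = 0.942). It rested on *upf-1KO* H2O2 replicate 2, and was -0.86 without that library (edgeR, adjusted p = 0.0309). Reads on the *upf-1* locus rose with H2O2 in both strains, by 1.30 in *upf-1KO* and 1.06 in WT on the log2 scale, with a difference of 0.24 that did not pass (edgeR, standard error 0.32, adjusted p = 0.655) and was -0.12 to 0.50 with 1 library left out, lowest without *upf-1KO* H2O2 replicate 1 and highest without its replicate 2. Of 7 heme synthesis genes, a pathway list of the study, NCU08291, named ferrochelatase there, differed positively: it had 1250.3, 1285 and 1176 normalized counts in *upf-1KO* with H2O2 and 1102, 1055 and 1061 without. WT had 741, 802 and 704 with H2O2 and 1374, 1352 and 1302 without. The difference was 1.05 (edgeR, standard error 0.17, adjusted p = 0.00642). This gene (chromosome IV, 2517661 to 2520262) is the neighbour of *mus-51*. A list of protein kinases and stress signalling, built from gene symbols, had 85 tested genes, not all of them kinases. In it *cot-2* and *stk-31* differed positively and *prk-1* negatively, by 0.82, 1.09 and -0.78 (edgeR, adjusted p = 0.0292, 0.0495 and 0.0362). The call of *cot-2* was lost with any of the 6 untreated libraries, WT H2O2 replicates 2 or 3 or *upf-1KO* H2O2 replicates 1 or 3 left out (adjusted p up to 0.17, log2 difference 0.54 to 0.86), that of *stk-31* with any of the 6 untreated libraries, WT H2O2 replicates 1, 2 or 3 or *upf-1KO* H2O2 replicates 1 or 3 left out (adjusted p up to 0.174, log2 difference 0.69 to 1.14) and that of *prk-1* with any of the 6 untreated libraries left out (adjusted p up to 0.107, log2 difference -1.09 to -0.72). Of 20 peroxins, 16 lay above the median of all genes (list median 0.31 above it) and *pex14*, a docking protein of peroxisomal import, was called (difference 1.33 (edgeR, standard error 0.32, adjusted p = 0.0347), lost with any of the 6 untreated libraries or WT H2O2 replicates 2 or 3 left out (adjusted p up to 0.114, log2 difference 0.99 to 1.40)). Among 26 mitochondrial import genes, *tim14* and *mdm10* differed positively by 1.38 and 1.19 (edgeR, adjusted p = 0.022 and 0.0429). *tim14* was lost with any of the 6 untreated libraries or WT H2O2 replicates 2 or 3 left out (adjusted p up to 0.0753, log2 difference 1.08 to 1.42) and *mdm10* with any of the 6 untreated libraries, WT H2O2 replicates 1, 2 or 3 or *upf-1KO* H2O2 replicates 1 or 3 left out (adjusted p up to 0.116, log2 difference 0.90 to 1.25). In the quinic acid cluster, *qa-3*, quinate dehydrogenase, differed by 2.21 (edgeR, standard error 0.58, adjusted p = 0.0448), lost with any of the 6 untreated libraries, WT H2O2 replicates 2 or 3 or *upf-1KO* H2O2 replicates 1 or 3 left out (adjusted p up to 0.12, log2 difference 1.58 to 2.42), and all of *tim14*, *mdm10* and *qa-3* overlap other genes. Reads on *qa-3* were few, at most 11 in each WT library with H2O2. None of 9 nucleotide synthesis, 6 carotenoid, 14 vacuolar proton pump, 9 histone, 6 RNA silencing, 44 histone modifier and 2 translation factor genes had a called difference with edgeR. At an unadjusted p under 0.05 these lists held 2, 3, 0, 3, 1, 4 and 2 genes in the same order, DESeq2 called 2, 2, 0, 1, 0, 1 and 2, and limma voom 5, 3, 4, 4, 1, 8 and 2. Of 22 genes of central carbon metabolism, 1 was called, *acu-6*.

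**Figure D5:**
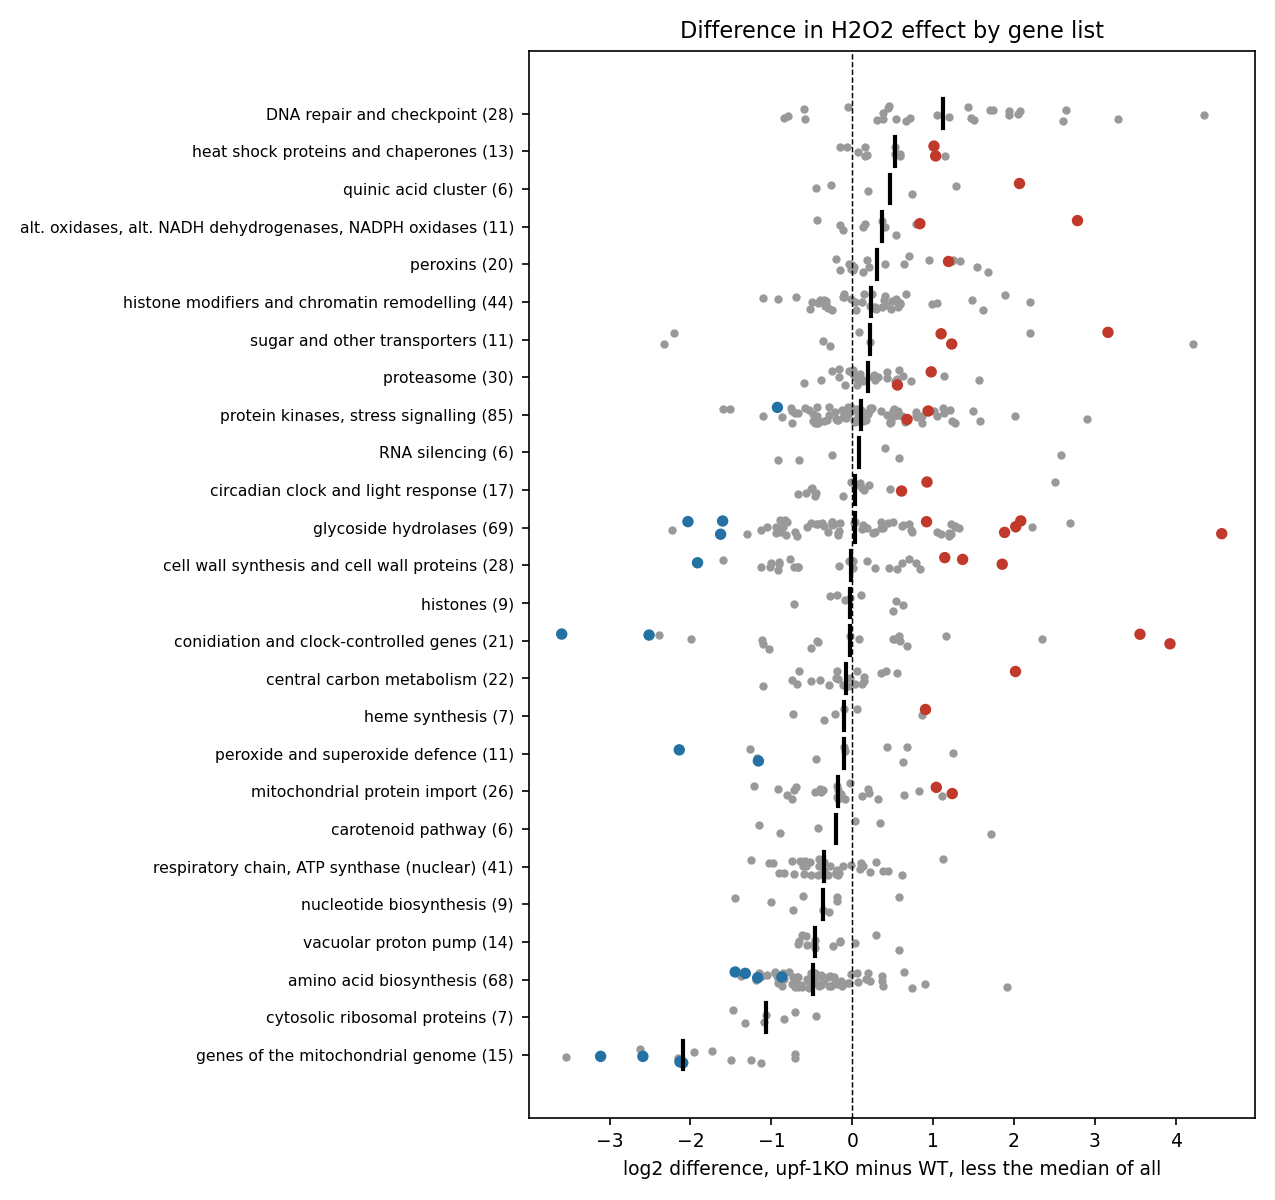
Strain difference of each tested gene (log2, upf-1KO minus WT, with the median of all genes taken off) for the gene lists with at least 6 tested members; points are genes, red and blue where called positive and negative, black bars are list medians, numbers in brackets count the tested genes, and vertical scatter within a list has no meaning. The lists of the mitochondrial genome and of ribosomal proteins with a symbol lie lowest, and those of DNA repair, which rests on 1 library, and of heat shock proteins highest.

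A few called genes were neighbours. On chromosome IV, NCU04862, *pks-3* (a polyketide synthase) and *ada-6*, between 517962 and 539552, all fell in WT and differed positively, by 2.56, 2.75 and 3.37. *pks-3* had 30.2, 58.5 and 32.5 normalized counts in *upf-1KO* with H2O2 and 186, 150.2 and 176 without, against 21.3, 51.9 and 22.2 in WT with H2O2 and 783, 1029.5 and 766 without, and its difference of 2.75 had an adjusted p of 0.00781 (edgeR, standard error 0.47). On chromosome V, NCU01057, NCU01058 and *gh47-3*, between 2785329 and 2792645, differed positively by 3.01, 3.82 and 2.23, and on chromosome III, NCU00175, NCU00176 and NCU00177, between 2902308 and 2911447, differed negatively by -2.10, -2.27 and -1.40. These 3 were the only runs of at least 3 called neighbours of the same sign in the order of all genes. When genes that were not tested are skipped there were 5 runs with 16 genes, the others being NCU05148, NCU05149 and NCU05151 on chromosome VI, with differences of -2.74, -1.99 and -2.43, and NCU09271 to NCU09274 on chromosome VII, where NCU09271 differed by 1.18. All 11 of these genes other than those described above kept their sign with each library left out, and 6 kept their call. NCU01058 lost its call without untreated WT or *upf-1KO* replicates 2 or 3 or WT H2O2 replicates 2 or 3 (edgeR, adjusted p up to 0.0723), NCU09271 without untreated *upf-1KO* replicate 1 or WT H2O2 replicates 2 or 3 (up to 0.0665). *gh47-3*, NCU00176 and NCU00177 lost theirs without any of the 6 untreated libraries or WT H2O2 replicate 2 (edgeR, adjusted p up to 0.0792, 0.097 and 0.0989), NCU00177 also without WT H2O2 replicate 3, and *gh47-3* also without WT H2O2 replicate 1 or *upf-1KO* H2O2 replicates 1 or 3. By chromosome, 3.53 to 4.16% of the genes tested on each of the 7 nuclear chromosomes differed positively and 1.91 to 3.91% negatively. The median length was 2178 bases for positive and 2124 for negative genes, against 2209 for all genes tested. Of the positive genes 28.6%, and of the negative genes 24%, overlapped another gene, against 25.9% of all genes tested.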

How the data were processed

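RNA-seq libraries of 12 samples were analysed. The authors aligned reads to the NC12 genome, and the submitters' processing notes name FastQC, HISAT2 2.2.1, featureCounts and Subread 2.0.1. The deposited counts are whole reads per gene without normalization. Strand use in counting was not given in the sources used here, so overlapping genes are uncertain. The authors also deposited FPKM values (scaled by gene length and library total), which were not used.

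Counts were fitted in edgeR 4.0.16 (R 4.3.3) with TMM factors, the default filter, 4 group means and quasi-likelihood tests over all 12 libraries. Normalized counts refer to the mean effective library size, 7734830. Totals per library (5891672 to 7703271 reads) limit precision, and floors (3 counts) cover counting error only. RefSeq gave 1118 symbols for 10588 matched identifiers. DESeq2 1.42.0 and limma 3.58.1 were alternatives. Scripts were checked on simulated counts. Python 3.11.15 with pandas and matplotlib made summaries.

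Genes were named if the study followed them (*upf-1*, *cat-1*, *cat-2*, *cat-3*, *cpc-1*, *ngf-1*), if among the 6 largest differences per direction, or the 10 largest with a symbol, averaging 100 or more normalized counts, with no overlap and a call with each library left out, if 1 of the 3 most abundant called genes per direction, or if 1 of the 4 most abundant called members of a list. Lists came from symbols and the study's tables, 4 were added later, and all members and lists were chosen with earlier results of these data known.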

Additional observations from a re-analysis of the deposited data

Results flagged for a closer look

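The difference between the strains in the effect of H2O2 was itself tested (edgeR, interaction of strain and H2O2) and passed for 304 genes with a positive and 225 with a negative value, 6.71% of the genes tested. Of the genes named by the rule or as neighbours, those below passed, with the log2 difference given as the effect in *upf-1KO* minus that in WT. A difference of at least 3 was found for NCU09734 5.84, NCU09272 5.48, NCU00859 5.02, NCU05858 4.85, NCU09274 4.71, NCU09273 4.65, *con-6* 4.07, NCU01058 3.82, *eas* 3.70, *ada-6* 3.37, *pho-5* 3.31 and NCU01057 3.01. Between 2 and 3 were *ndi-1* 2.93, *pks-3* 2.75, NCU04862 2.56, *pmg* 2.43, *gh47-3* 2.23, *qa-3* 2.21, *Prm1* 2.17, *acu-6* 2.16, *gla-1* 2.03 and *chit-1* 2.0. Under 2 were *cut-1* 1.61, *acw-10* 1.51, *tim14* 1.38, *ena-1* 1.38, *pex14* 1.33, *gel-4* 1.29, *pma-1* 1.25, *mdm10* 1.19, *hsf-2* 1.18, NCU09271 1.18, *hsp80* 1.16, *pcb-3* 1.12, *stk-31* 1.09, *frh* 1.07, NCU08291 1.05, *nde-3* 0.98, *cot-2* 0.82, *bd* 0.76 and *pca-4* 0.71. Negative differences of -2 or beyond were found for *ccg-13* -3.44, NCU16020 -2.96, ENSRNA049513425 -2.92, NCU08230 -2.82, NCU02138 -2.76, NCU05148 -2.74, NCU07222 -2.62, NCU11395 -2.48, NCU16002 -2.44, NCU05151 -2.43, *ccg-14* -2.36, NCU00176 -2.27, NCU00175 -2.10 and *fdh* -2.08. Nearer to 0 were *cat-3* -1.99, NCU05149 -1.99, NCU16012 -1.98, NCU16028 -1.95, *gh28-1* -1.88, *acw-12* -1.77, *gh76-2* -1.48, *gh16-1* -1.46, NCU00177 -1.40, *ro-7* -1.32, *cpc-1* -1.30, *for* -1.22, *ilv-5* -1.18, *trp-2* -1.02, *trx* -1.01, NCU05267 -0.97, *prk-1* -0.78 and *cys-2* -0.72. Groups of 3 were not tested for outlying samples value by value. The sample quality weights that limma voom estimated were 0.0437 for *upf-1KO* H2O2 replicate 2 and 0.135 for WT H2O2 replicate 1, against 1.06 to 2.45 for the other libraries.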

How the results depend on the processing

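The counts of positive and negative strain differences (304 and 225) were recomputed under 12 other settings, with each library left out, and, chosen after seeing the data, without WT_H2O2 replicate 1 and upf1KO_H2O2 replicate 2 together. Positive calls were 201 with DESeq2's size factors, 173 with upper quartile factors, 169 without a filter on low counts and 1093 with library totals alone, which gave 108 negative calls. A test against a 2-fold difference gave 25 positive and 16 negative calls, limma voom with sample quality weights 1491 and 1168, DESeq2 414 and 531, and leaving out the pair of libraries 1668 and 1265. With 1 library left out they ranged from 92 to 749 and from 76 to 591. Library totals alone took no account of composition, and the cause of the other shifts was not tested. Replicate numbers did not pair the samples (correlations of deviations between same-numbered libraries -0.26 to 0.24), so the replicate block is given only as counts, 176 positive and 152 negative. The 62 called genes named by the rule kept their sign in each of 25 alternatives, or 24 for 5 of them. Of the 62, 17 also kept their call in each, and 35 kept it with each library left out. The rule took its largest differences only from genes that kept this call, so the 35 is partly set by the rule. Of all 304 positive and 225 negative calls, 76 and 72 were kept with each library left out. The 11 called neighbours outside the rule were refitted only with each library left out. Among genes named by the rule but not called, *cat-2* (0.04) was -0.11 with DESeq2's size factors, -0.22 with upper quartile factors, -0.077 without a filter, -0.12 with the gene length trend removed, -0.070 with the replicate block, -0.19 with block and length trend, -0.11 with DESeq2, -0.45 with voom, -0.38 without the pair of libraries, and -1.35 to 0.76 with 1 library left out. *ngf-1* (0.64) was -0.18 with voom, -0.17 without the pair of libraries and -0.15 at the lowest with 1 left out, up to 0.77, and *upf-1* (0.24) ranged from -0.12 to 0.50 with 1 left out. Genes with few reads limit what can be shown: 7878 of 10685 genes were tested.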
